A study of Sus scrofa with 13 samples.

Results

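ATF4, PSAT1, HSPA5 and CALR stand for the stress-response transcription factor ATF4, for the serine synthesis that it drives, and for the chaperones of the endoplasmic reticulum. Their mRNA was followed in the biceps femoris, a thigh muscle, of German Landrace pigs that had or lacked an intact dystrophin gene. The 4 genes were picked with earlier results of these data known, their probe sets were found by symbol, and each had 1, so 4 probe sets of 21893 (4 of 10283 named genes) are described here. The 13 arrays, 1 per animal, came from 4 DMD KO and 3 WT piglets aged 2 days, and from 3 DMD KO and 3 WT pigs aged 3 months. The DMD KO pigs lacked exon 52 of DMD, the dystrophin gene, and were cloned by transfer of nuclei from primary kidney cells that carried a modified artificial chromosome. How many nuclear donor clones stood behind the animals was not stated in the labels. Their muscle was taken at necropsy right after death, whereas WT pigs of like age were euthanised. Genotype, cloning and manner of death therefore cannot be told apart in any genotype difference below.

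ATF4 belongs to the integrated stress response. Kinases that sense misfolded protein in the reticulum, a lack of amino acids, viral RNA or a lack of heme phosphorylate the translation factor eIF2 alpha, which slows protein synthesis in general while translation of the ATF4 message goes up. ATF4 protein then switches on genes for amino acid synthesis and uptake, among them PSAT1, the aminotransferase of the serine route. HSPA5 (BiP), the Hsp70 of the reticulum lumen, and CALR (calreticulin), a calcium-binding lectin chaperone of glycoproteins, are induced mainly by other arms of the response to unfolded protein, and in muscle they also serve the calcium store and the folding of secreted matrix proteins. Because ATF4 is set largely by translation, its mRNA is not a reading of its protein, and protein was not measured here.

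Values are the deposited levels, read as log2 from their range (none above 13.79), since the labels do not give the base. A difference of 1 then stands for a 2-fold change. Array medians lay between 7.32 and 7.38, and the array of WT replicate 3 at 2 days stood apart from the rest, with a mean correlation to the other arrays of 0.918 (the others lay between 0.943 and 0.964). Its upper range was lower as well, with a 95th percentile of 9.21, against 9.48 to 9.83 on the others. ATF4, CALR and HSPA5 lay in that range, at percentiles 94.2, 95.9 and 97.3 of mean level. Precision is limited by how few animals each group holds. Of the 10 listed markers of skeletal muscle fibres 5 were measured, and their mean level lay between 11.5 and 12.5 on all arrays, near the top of the range. All tests come from limma, a linear model fitted to every probe set over the 4 groups together, with p adjusted by Benjamini-Hochberg over all probe sets of a comparison. A gene was called at an adjusted p under 0.05.

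ATF4 was higher in DMD KO than in WT muscle at 2 days and lower at 3 months. Its level was 8.99, 9.28, 9.23 and 9.60 in the 4 DMD KO piglets at 2 days, against 8.79, 8.79 and 8.47 in the 3 WT piglets. At 3 months it was 9.38, 9.38 and 9.40 in DMD KO, against 10.43, 10.44 and 10.32 in WT. The groups did not overlap at either age, and the 3 DMD KO animals at 3 months were nearly alike (SD 0.02). How often groups of this size separate over all probe sets was not counted, so lack of overlap is given here and below as description only. At 2 days ATF4 was 1.50-fold higher in DMD KO (difference 0.59 ± 0.13, SE, adjusted p = 0.0136). At 3 months it was 2.01-fold lower in DMD KO (difference -1.01 ± 0.14, SE, adjusted p = 0.000827). The share of all probe sets called at 2 days was 9.93%, with 7.09% higher in DMD KO and 2.85% lower. At 3 months it was 5.98%, with 4.62% higher in DMD KO and 1.36% lower. The call at 2 days ended without WT replicate 3, the array that stood apart (difference 0.48, adjusted p = 0.0572), and when only the newborn groups were fitted (adjusted p = 0.0654). The call at 3 months held in all 20 alternative settings of the analysis. In bulk muscle, fewer cells of a type and less RNA per cell cannot be told apart.

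PSAT1 was lower in DMD KO at 2 days and did not pass the test at 3 months. Its level was 5.86, 5.96, 5.86 and 6.12 in DMD KO at 2 days, against 7.80, 8.59 and 7.88 in WT. At 3 months it was 7.19, 6.81 and 7.05 in DMD KO, against 6.89, 6.50 and 7.89 in WT. The newborn groups lay far apart, whereas at 3 months the WT values spread around all DMD KO values. The difference at 2 days was -2.15 ± 0.28 (SE, adjusted p = 0.000831), and it was called in all 20 alternative settings. All 4 DMD KO arrays at 2 days had PSAT1 below their own 25th percentile of probe sets, so it was dim there and no fold is given. The 3-month difference of PSAT1 was -0.07 ± 0.29 (SE), its 95% interval ran from -0.71 to 0.56, and the adjusted p was 0.898.

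The chaperones HSPA5 and CALR were higher in DMD KO at 3 months, and CALR was lower at 2 days. HSPA5 had levels of 9.85, 9.46, 10.14 and 9.73 in DMD KO at 2 days, against 10.42, 10.84 and 10.26 in WT. At 3 months they were 10.27, 10.99 and 10.91 in DMD KO, against 10.11, 9.75 and 9.49 in WT. The groups did not overlap at either age, with DMD KO below WT in newborns and above it in grown animals. At 2 days the difference was -0.71 ± 0.22 (SE) and did not pass (adjusted p = 0.0568, with a 95% interval from -1.18 to -0.24). At 3 months HSPA5 was 1.92-fold higher in DMD KO (difference 0.94 ± 0.23, SE, adjusted p = 0.0307). That call ended when any 1 of DMD KO replicates 2 and 3 or WT replicates 2 and 3 at 3 months was left out (differences from 0.80 to 0.93, adjusted p from 0.0972 to 0.138), and when only the groups at 3 months were fitted (adjusted p = 0.0698).

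CALR had levels of 9.42, 9.48, 9.56 and 9.33 in DMD KO at 2 days, against 9.88, 10.31 and 9.88 in WT. At 3 months they were 10.02, 10.22 and 10.52 in DMD KO, against 9.64, 9.39 and 9.31 in WT. Again no value of one genotype reached into the range of the other. CALR was 1.49-fold lower in DMD KO at 2 days (difference -0.58 ± 0.14, SE, adjusted p = 0.0239) and 1.75-fold higher at 3 months (difference 0.81 ± 0.15, SE, adjusted p = 0.00682). The call at 2 days ended without DMD KO replicate 1, 2 or 4 or WT replicate 2 at that age (adjusted p from 0.051 to 0.071), while the call at 3 months held in all 20 alternative settings.

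**Figure D1:**
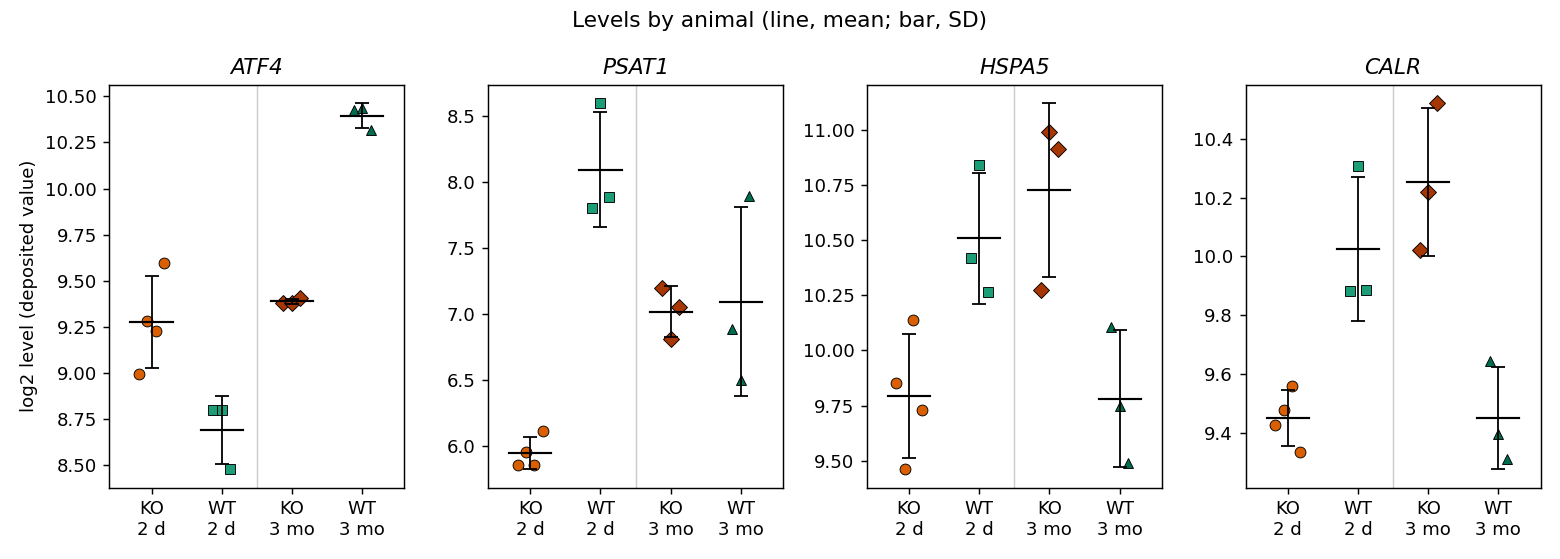
Log2 level of ATF4, PSAT1, HSPA5 and CALR (vertical axes, a separate scale for each gene) in each of the 13 animals, by genotype and age (horizontal axes: KO, DMD knockout; d, days; mo, months). Points are animals, lines are group means and bars are SD. ATF4 sits above WT in newborn DMD KO and below it at 3 months. HSPA5 and CALR sit below WT in newborn DMD KO and above it at 3 months, and the HSPA5 difference at 2 days did not pass the test.

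Markers of fibroblasts, the cells that make most of the matrix, differed between genotypes in the same direction as HSPA5 and CALR at both ages. ATF4 differed in the opposite direction. Of 8 listed fibroblast markers 7 were measured, and 6 were lower in DMD KO at 2 days and 6 higher at 3 months, with medians of -1.14 and 0.74. Over all probe sets 2.85% were called lower at 2 days and 4.62% higher at 3 months. The count at 3 months was 3 without DMD KO replicate 1 or WT replicate 2 at that age. The mean level of the 7 ran from 9.57 to 9.81 in DMD KO at 2 days, against 10.73 to 10.88 in WT, and from 10.90 to 10.99 in DMD KO at 3 months, against 9.87 to 10.30 in WT. DMD KO at 3 months and WT at 2 days were the upper groups, as they were for HSPA5 and CALR. Across the 13 arrays the marker mean had a Pearson r of 0.86 with CALR, 0.78 with HSPA5, 0.75 with PSAT1 and -0.31 with ATF4. These points share their groups: for deviations from the group means r was 0.21, -0.0030, 0.46 and 0.25 in the same order of genes. Of 9 listed macrophage markers 6 were measured, 0 called by limma at 2 days (1 had an unadjusted p under 0.05) and 4 higher at 3 months. Their mean ran from 8.08 to 8.82 in DMD KO at 3 months, against 7.03 to 7.37 in WT. Of 6 listed tendon and cartilage markers 5 were measured, all below 0 at 2 days with 3 called lower in DMD KO (median -1.72). At 3 months 0 of these 5 were called by limma (2 had an unadjusted p under 0.05), and for 2 the genotype difference changed upward between ages (median of the 5 changes 1.52). Their mean level ran from 6.61 to 6.93 in DMD KO at 2 days, against 7.67 to 9.08 in WT, and from 7.88 to 8.50 in DMD KO at 3 months, against 7.33 to 8.09 in WT. All 5 measured muscle fibre markers were below 0 at 2 days, with 1 called lower in DMD KO (median -0.21). At 3 months 4 of the 5 were below 0 (median -0.31), with 0 called by limma and 2 at an unadjusted p under 0.05. With age 2 of the 5 were called higher in WT and 2 in DMD KO (medians 0.47 and 0.37). Over all probe sets 1.71% rose with age in WT and 4.47% in DMD KO. The genotype difference changed upward between ages for 3.06% of all probe sets. The part of these cells in the results for ATF4, PSAT1, HSPA5 and CALR was not tested.

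**Figure D2:**
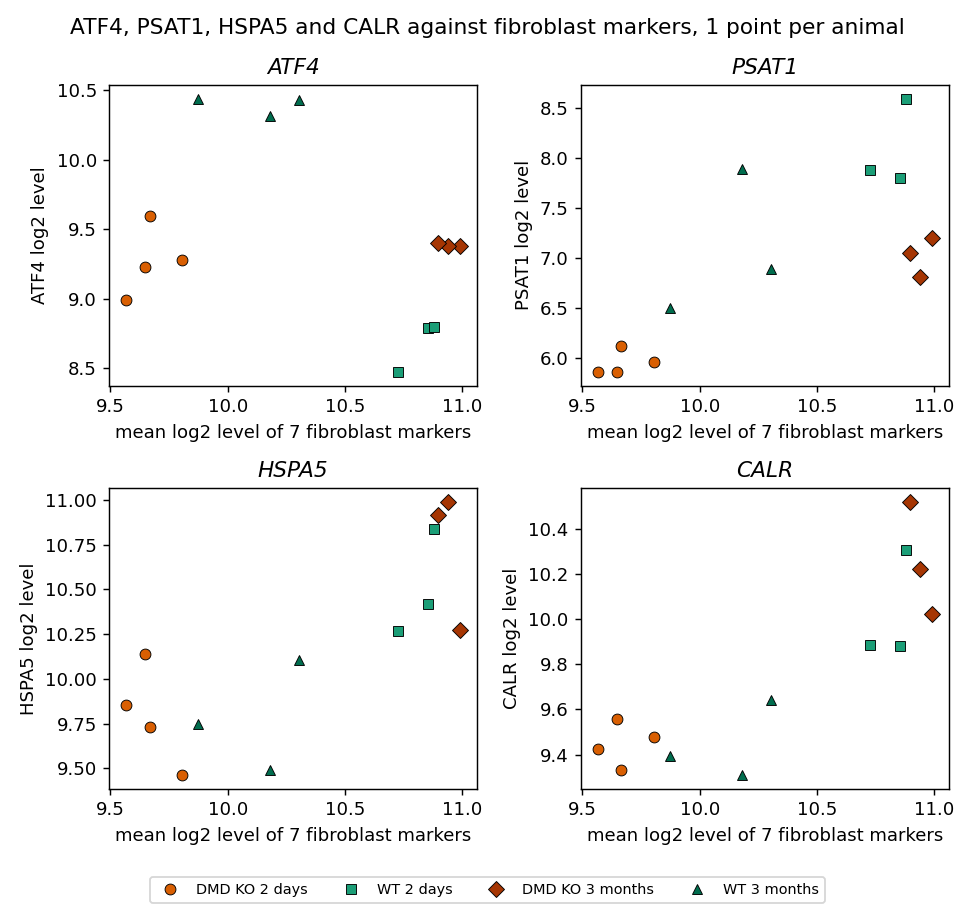
Log2 level of ATF4, PSAT1, HSPA5 and CALR (vertical axes) against the mean log2 level of 7 fibroblast markers (horizontal axes), 1 point per animal, with symbols for the 4 groups. DMD KO at 2 days lies at the low end of the markers (9.57 to 9.81) and DMD KO at 3 months at the high end (10.90 to 10.99), and HSPA5 and CALR rise along them between groups.

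The difference between genotypes itself differed between the ages for all 4 genes. That change, the genotype difference at 3 months minus the one at 2 days, was -1.60 ± 0.19 for ATF4 (SE, adjusted p = 0.000444). It was 2.07 ± 0.40 for PSAT1 (SE, adjusted p = 0.0104). For HSPA5 it was 1.65 ± 0.32 (SE, adjusted p = 0.00958) and for CALR 1.38 ± 0.21 (SE, adjusted p = 0.00203). Of all probe sets 5.05% were called in this comparison, 3.06% upward and 1.99% downward. The calls of ATF4, PSAT1 and CALR held in all 19 alternative settings that could be run, and that of HSPA5 in 18. ATF4 was among 37 probe sets (0.169% of all) that were called higher in DMD KO at 2 days and lower at 3 months. CALR was among 97 (0.443%) called the other way at both ages.

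**Figure D3:**
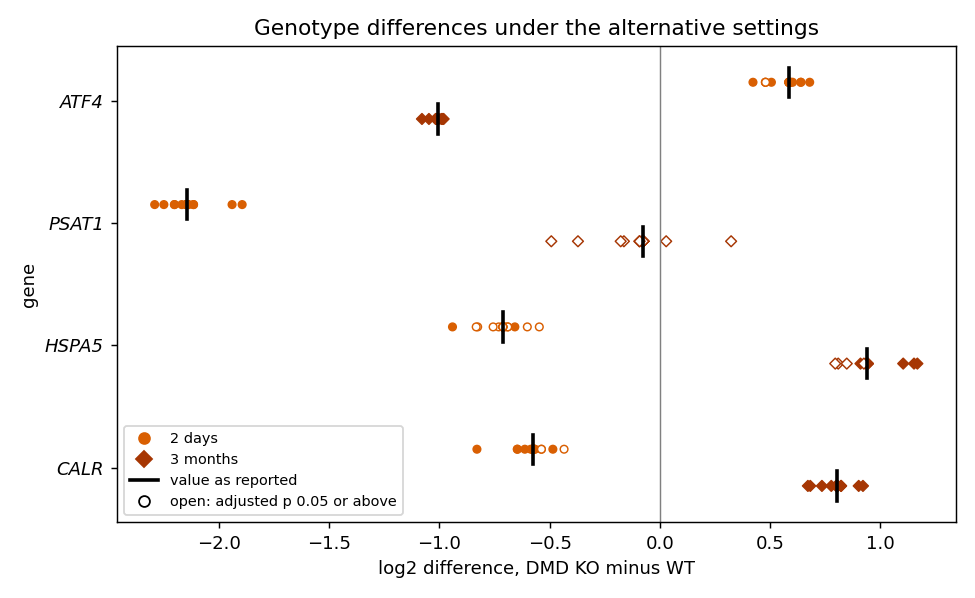
Log2 difference between DMD KO and WT (horizontal axis) of the 4 genes (vertical axis) at 2 days (circles) and 3 months (diamonds), under the value as reported (black bars) and 20 alternative settings (points, open where the adjusted p was 0.05 or above). The signs at both ages hold for ATF4, HSPA5 and CALR in every setting, and PSAT1 at 3 months lies on both sides of 0.

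Set along age, the 4 genes took different courses in the genotypes. These comparisons use the same arrays as the genotype comparisons and are no separate evidence. In WT muscle ATF4 averaged 10.40 ± 0.07 at 3 months and 8.69 ± 0.18 at 2 days (SD, n = 3 each), a 3.27-fold rise (difference 1.71 ± 0.14, SE, adjusted p = 5.77e-05). Its p ranked 8 among the 21893 probe sets of that comparison, in which 2.89% were called (1.71% higher and 1.18% lower at 3 months). In DMD KO muscle ATF4 averaged 9.39 ± 0.02 at 3 months (SD, n = 3) and 9.27 ± 0.25 at 2 days (SD, n = 4), a difference of 0.11 ± 0.13 (SE, adjusted p = 0.812), whose 95% interval ran from -0.17 to 0.39. The difference between these courses is the change of -1.60 given above.

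PSAT1, HSPA5 and CALR rose with age in DMD KO muscle, where 8.04% of all probe sets were called (4.47% higher and 3.57% lower at 3 months). PSAT1 averaged 7.02 ± 0.19 at 3 months (SD, n = 3) and 5.95 ± 0.12 at 2 days (SD, n = 4), a difference of 1.07 ± 0.28 (SE, adjusted p = 0.0305). This call ended without any 1 of the 7 DMD KO arrays (adjusted p from 0.0521 to 0.117), although the groups did not overlap. HSPA5 rose 1.90-fold (0.93 ± 0.22, SE, adjusted p = 0.0179), a call that ended without DMD KO replicate 2 at 2 days or replicate 2 or 3 at 3 months (adjusted p from 0.0552 to 0.0948). CALR rose 1.75-fold (0.81 ± 0.14, SE, adjusted p = 0.00305) and was called in all 20 alternative settings. In WT muscle the same 3 genes had lower means at 3 months than at 2 days without passing the test. PSAT1 averaged 7.09 ± 0.72 at 3 months and 8.09 ± 0.44 at 2 days (SD, n = 3 each), and the 95% interval of its difference ran from -1.64 to -0.36 (limma, adjusted p = 0.105). The differences were -0.73 ± 0.23 for HSPA5 (SE, adjusted p = 0.142) and -0.58 ± 0.15 for CALR (SE, adjusted p = 0.0656). After quantile normalization HSPA5 and CALR did pass there, at -0.82 and -0.67 (adjusted p = 0.047 and 0.012), and PSAT1 passed without WT replicate 3 at 3 months, its highest value (-1.40, adjusted p = 0.0101).

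Ordered by level, ATF4 ran from WT at 3 months, clear of all others, to DMD KO at 3 months and DMD KO at 2 days, whose values overlapped, and then WT at 2 days. PSAT1 was highest in WT at 2 days, where the lowest value of 7.80 lay just below the highest of WT at 3 months (7.89). WT and DMD KO at 3 months overlapped fully, and DMD KO at 2 days lay below every other group. For HSPA5 and CALR the order was DMD KO at 3 months and WT at 2 days, which overlapped, above DMD KO at 2 days and WT at 3 months, which overlapped too. The upper pair of groups was clear of the lower pair for both chaperones.

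Serine is made from an intermediate of glycolysis by PHGDH, PSAT1 and PSPH in turn, and SHMT1 and SHMT2 turn it into glycine and a one-carbon unit. PHGDH and SHMT1 had no probe set of their own symbol and were not analysed here. Both the aminotransferase PSAT1 and the phosphatase PSPH were called lower in newborn DMD KO muscle, which makes 2 of 3 measured genes of the route. Over all probe sets 2.85% were called lower there. PSPH averaged 5.83 in DMD KO and 6.54 in WT (difference -0.70 ± 0.13, SE, adjusted p = 0.00556), and was dim in both. At 3 months PSPH differed by -0.43 ± 0.14 (SE, adjusted p = 0.0925), and 0 of the 3 genes were called by limma (1 had an unadjusted p under 0.05). The mitochondrial SHMT2 had differences of -0.02 in newborns (adjusted p = 0.924) and -0.03 in grown pigs (adjusted p = 0.892).

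Of 10 listed enzymes of the folate one-carbon cycle 6 were measured, and 1 was called lower and 1 higher in DMD KO at 2 days (median difference -0.31, against -0.02 over all probe sets). The shares of all probe sets were 2.85% lower and 7.09% higher. ALDH1L2, the mitochondrial enzyme that oxidises formyl-tetrahydrofolate, had levels of 7.58, 7.49, 7.38 and 7.33 in DMD KO, against 8.63, 8.80 and 8.62 in WT. It was 2.36-fold lower in DMD KO, with no overlap (difference -1.24 ± 0.15, SE, adjusted p = 0.000609). MTR, the methionine synthase, was 1.60-fold higher (0.68 ± 0.18, SE, adjusted p = 0.035), a call that ended without DMD KO replicate 2, 3 or 4 or WT replicate 3. At 3 months 0 of the 6 were called (1 had an unadjusted p under 0.05), and ALDH1L2 then differed by 0.36 ± 0.16 (SE, adjusted p = 0.234). The genotype difference of ALDH1L2 changed between the ages by 1.60 ± 0.21 (SE, adjusted p = 0.00107), and that call held in all 19 alternative settings. MTHFD2, the mitochondrial methylene-tetrahydrofolate dehydrogenase, did not pass at either age (-0.28, adjusted p = 0.221, and 0.19, adjusted p = 0.531).

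Known targets of ATF4 were called in both directions at 2 days. Of 24 listed targets, a list that leaves out PSAT1 because it was counted with the serine route, 15 were measured, and in DMD KO at 2 days 1 was called higher and 2 lower, with a median difference of -0.15. The shares of all probe sets were 7.09% higher and 2.85% lower at 2 days, and 4.62% and 1.36% at 3 months. ASNS, the asparagine synthetase, had levels of 6.34, 6.23, 6.33 and 6.20 in DMD KO, against 8.53, 7.87 and 7.87 in WT. The 4 DMD KO values were close together, dim and far below WT (difference -1.81 ± 0.27, SE, adjusted p = 0.00192). ALDH18A1, which starts proline synthesis, was 1.32-fold lower at 2 days (-0.40 ± 0.11, SE, adjusted p = 0.0395), a call held in 11 of 20 alternative settings. At 3 months it was 1.43-fold higher (0.51 ± 0.12, SE, adjusted p = 0.0204), the 1 target called at that age. Most targets then lay on the other side, with 12 of the 15 below 0 and 3 above. Their median was -0.22, against -0.05 over all probe sets, and 6 had an unadjusted p under 0.05 by limma.

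CTH, the cystathionine gamma-lyase that makes cysteine, went the other way, with levels of 7.14, 7.08, 6.93 and 7.45 in DMD KO at 2 days, against 5.42, 6.06 and 5.99 in WT. It was higher in DMD KO by 1.33 ± 0.15 (SE, adjusted p = 0.000478). CTH was dim in the other 3 groups, below the 25th percentile of the arrays (6.53 to 6.61), so the sizes of its differences are uncertain and no fold is given. At 3 months CTH had 5.63, 5.55 and 5.58 in DMD KO, against 6.06, 6.13 and 6.06 in WT, a difference of -0.49 ± 0.16 (SE) that did not pass (adjusted p = 0.108). Its genotype difference changed between the ages by -1.82 ± 0.22 (SE, adjusted p = 0.000542), in the same direction as that of ATF4. The stress markers among the targets did not pass at either age. DDIT3 (CHOP), the transcription factor of prolonged stress, differed by -0.02 (adjusted p = 0.917) and -0.10 (adjusted p = 0.627) at 2 days and 3 months. CHAC1, a glutathione-degrading enzyme, differed by -0.23 (adjusted p = 0.367) and -0.40 (adjusted p = 0.231). SESN2, a stress-induced sestrin, differed by -0.16 (adjusted p = 0.288) and -0.12 (adjusted p = 0.537). TRIB3, ATF5, FGF21 and GDF15 were not analysed here. With age in WT muscle, where ATF4 rose, 1 of the 15 targets was called, VLDLR, a lipoprotein receptor, at 0.69 ± 0.16 (SE, adjusted p = 0.0373), which held in 9 of 20 alternative settings. The share of all probe sets called in that comparison was 2.89%.

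In DMD KO muscle 2 targets rose and 2 fell with age, where 4.47% of all probe sets rose and 3.57% fell. ASNS averaged 8.12 at 3 months and 6.27 at 2 days (1.85 ± 0.27, SE, adjusted p = 0.00101), and ALDH18A1 rose by 0.48 (adjusted p = 0.0146). CTH averaged 5.59 at 3 months and 7.15 at 2 days (-1.56 ± 0.15, SE, adjusted p = 5.36e-05), and VEGFA, the vascular growth factor, fell by 0.89 (adjusted p = 0.0302). The one-carbon enzyme ALDH1L2 rose as well, by 1.05 (adjusted p = 0.000705). The calls of ASNS, CTH and ALDH1L2 held in every alternative setting that could be run, while that of VEGFA held in 13 of 20. The change of ASNS between the genotype differences at 3 months and 2 days was 1.53 ± 0.40 (SE, adjusted p = 0.0449), a call held in 5 of 19 alternative settings.

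**Figure D4:**
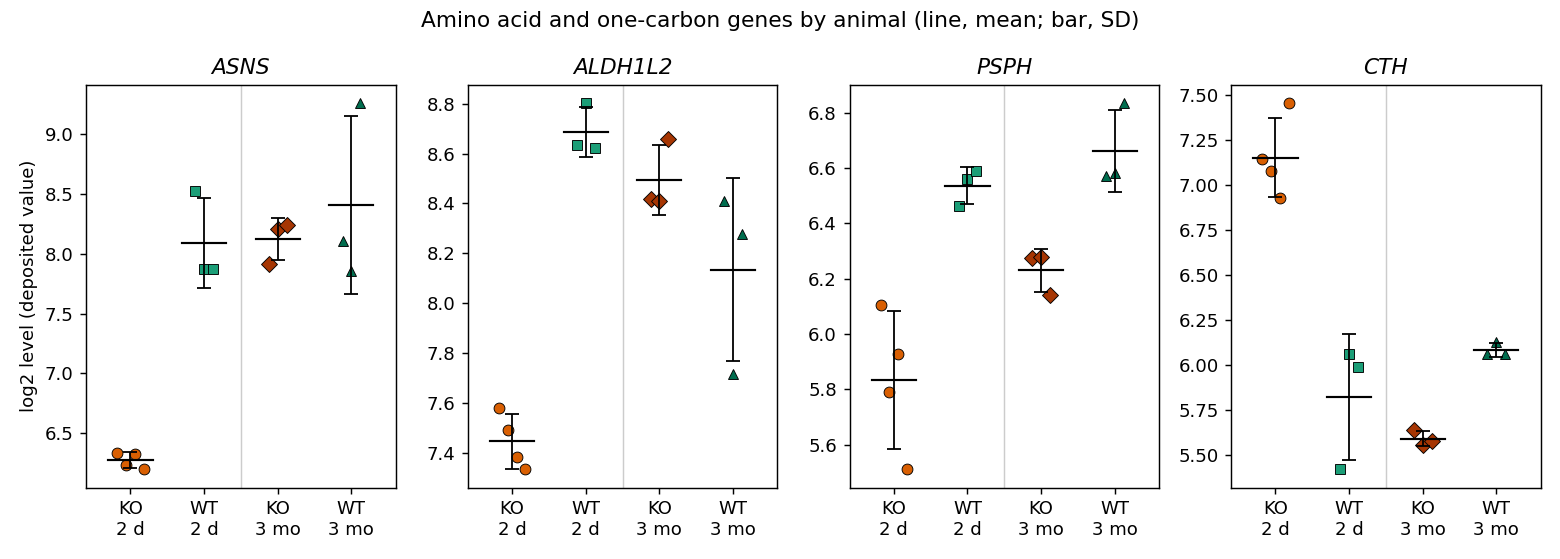
Log2 level of ASNS, ALDH1L2, PSPH and CTH (vertical axes, a separate scale for each gene) in each animal by genotype and age (horizontal axes, groups as in the plot of ATF4, PSAT1, HSPA5 and CALR). Points are animals, lines group means and bars SD; the 4 newborn DMD KO animals are lowest for ASNS, ALDH1L2 and PSPH and highest for CTH.

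Genes that take up amino acids or charge tRNAs come next. The share of all probe sets called was 9.93% at 2 days and 5.98% at 3 months, and the counts were not tested against it. Of 6 measured amino acid transporters 1 was called, at 2 days: SLC38A2, the glutamine and alanine transporter SNAT2. Its levels were 12.08, 12.07, 12.13 and 11.95 in DMD KO, against 11.50, 11.27 and 10.08 in WT, where replicate 3 was far below the others. SLC38A2 was higher in DMD KO by 1.11 ± 0.31 (SE, adjusted p = 0.0404), a call held in 11 of 20 alternative settings and lost without WT replicate 3. Of the 15 measured genes of tRNA charging, which are aminoacyl-tRNA synthetases and the tRNA exporter XPOT, 0 were called by limma at either age, with 5 and 4 at an unadjusted p under 0.05 at 2 days and 3 months and medians of 0.05 and 0.14. The largest differences were those of LARS, for leucine, at 2 days (0.58, adjusted p = 0.0995) and of NARS, for asparagine, at 3 months (0.69, adjusted p = 0.132).

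Upstream of ATF4, 6 genes of eIF2 alpha, its kinases and its phosphatase were measured. By limma 0 were called at 2 days (1 had an unadjusted p under 0.05) and 1 at 3 months (2 had an unadjusted p under 0.05). Of the 6 differences 5 were above 0 at 2 days and 6 at 3 months (medians 0.22 and 0.32). The called gene was EIF2AK3 (PERK), the kinase of the reticulum, at 7.39, 7.41 and 7.60 in DMD KO, against 7.17, 6.82 and 6.85 in WT. It was 1.44-fold higher in DMD KO (0.53 ± 0.14, SE, adjusted p = 0.0454), close to the threshold and called in 7 of 20 alternative settings. Over all probe sets 9.93% were called at 2 days and 5.98% at 3 months. EIF2AK2 (PKR), which senses double-stranded RNA and is induced by interferon, differed by 1.07 ± 0.52 at 2 days (SE, adjusted p = 0.205). EIF2AK1, the heme-regulated kinase, had differences of 0.14 in newborns (adjusted p = 0.413) and 0.05 in grown pigs (adjusted p = 0.837), and EIF2AK4, the amino acid sensor, was not analysed here.

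Among 9 measured sensors and transcription factors of reticulum stress 0 were called by limma at 2 days (3 had an unadjusted p under 0.05) and 2 were higher in DMD KO at 3 months. Over all probe sets 9.93% were called at 2 days, and 4.62% were higher at 3 months. NFE2L2 (NRF2), the antioxidant factor, was 1.68-fold higher (0.75 ± 0.16, SE, adjusted p = 0.0141), and CREB3L2, a membrane-bound factor of secretory cells, was 1.37-fold higher (0.45 ± 0.11, SE, adjusted p = 0.026). The call of NFE2L2 ended without DMD KO replicate 3 or WT replicate 2 at 3 months, and that of CREB3L2 without replicate 2 or 3 of either genotype. XBP1 is spliced by the sensor IRE1 into an activator of chaperone genes. Its levels were 6.63, 6.54, 6.94 and 6.85 in DMD KO at 2 days, against 7.21, 7.59 and 7.19 in WT, a difference that narrowly missed (-0.59 ± 0.18, SE, adjusted p = 0.0535). In DMD KO it rose with age by 0.85 ± 0.18 (SE, adjusted p = 0.00924), in all 20 alternative settings, and the spliced form cannot be told from the whole on these probe sets. ATF6, another sensor, did not pass at either age (0.35, adjusted p = 0.302, and 0.51, adjusted p = 0.252).

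Of 30 listed chaperones and foldases of the reticulum, HSPA5 and CALR included, 23 were measured. At 2 days 1 was called higher and 3 lower in DMD KO, with a median difference of -0.09. The shares of all probe sets were 7.09% higher and 2.85% lower. Beside CALR the lower ones were PPIB, the cyclophilin that helps collagen fold, which was 1.72-fold lower (-0.78 ± 0.14, SE, adjusted p = 0.00493), and ERP29, a disulfide isomerase relative (-0.38 ± 0.09, SE, adjusted p = 0.0161). DNAJB9, a co-chaperone of HSPA5, was 1.46-fold higher (0.55 ± 0.15, SE, adjusted p = 0.0399), held in 10 of 20 alternative settings. The count of 4 was 2 without DMD KO replicate 1 or 4 at 2 days.

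At 3 months 9 of the 23 were called higher in DMD KO and 0 lower, with a median of 0.53 (against -0.05 over all probe sets), and 20 of the 23 differences were above 0. Over all probe sets 4.62% were called higher and 1.36% lower at that age. The called genes with the largest rise were HSPA13, an Hsp70 relative, at 1.28 ± 0.30 (SE, adjusted p = 0.0249) and UGGT1, the glucosyltransferase that returns misfolded glycoproteins to CALR, at 1.16 ± 0.28 (SE, adjusted p = 0.0309). HSPA5, the co-chaperone DNAJB11 (0.84 ± 0.19, SE, adjusted p = 0.023) and CALR followed. The disulfide isomerase PDIA3, the partner of CALR, was higher by 0.75, PPIB by 0.68, PDIA4 by 0.54 and PDIA6 by 0.47. Calnexin (CANX), the membrane-bound relative of CALR, differed by 0.69 ± 0.20 (SE, adjusted p = 0.0674). The count of 9 depended on single arrays: it was 1 without DMD KO replicate 3, WT replicate 2 or WT replicate 3 at 3 months, 6 without DMD KO replicate 2 there, and 13 without WT replicate 3 at 2 days.

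**Figure D5:**
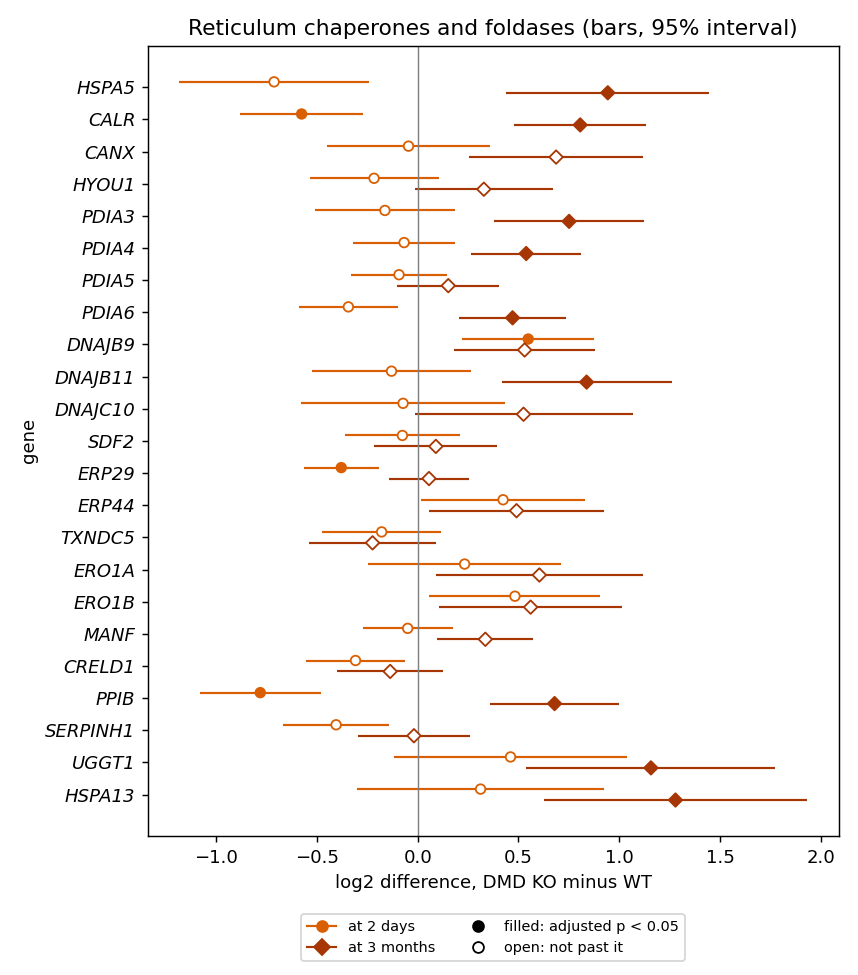
Log2 difference, DMD KO minus WT, for the 23 measured chaperones and foldases of the reticulum (rows) at 2 days (circles) and 3 months (diamonds), with 95% intervals from limma. Filled symbols passed the test; most diamonds lie to the right of 0, with 20 of 23 above it, and 6 of 23 circles do.

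In 5 of the 23 genes the genotype difference itself changed between ages, all upward, and 21 of 23 changes were above 0. They were HSPA5, PPIB (1.46 ± 0.20, SE, adjusted p = 0.00127), CALR, PDIA3 (0.91) and PDIA6 (0.81). PPIB alone was called in every genotype and age comparison, with 7.72, 7.44, 7.81 and 7.60 in DMD KO at 2 days, against 8.20, 8.37 and 8.71 in WT, and 8.06, 8.08 and 8.37 in DMD KO at 3 months, against 7.66, 7.42 and 7.39 in WT. Its groups did not overlap at either age. In WT it fell with age by 0.93 (adjusted p = 0.00501), and in DMD KO it rose by 0.53 (adjusted p = 0.0338), a rise called in 12 of 20 alternative settings. With age 6 of the 23 rose in DMD KO, and 1 fell in WT. Over all probe sets 4.47% rose with age in DMD KO, 1.18% fell in WT and 3.06% had an upward change called.

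Some genes of neighbouring steps of the secretory route were called too. The shares of all probe sets called higher in DMD KO were 7.09% at 2 days and 4.62% at 3 months. Of 15 measured genes of the translocon, the channel into the reticulum, and of signal peptide removal 0 were called by limma at 2 days (9 had an unadjusted p under 0.05) and 2 were higher in DMD KO at 3 months. The count at 2 days was 5 without WT replicate 2 at that age, and from 0 to 2 without any other array. Differences lay above 0 for 9 of the 15 genes at 2 days and for 15 at 3 months (medians 0.07 and 0.36). SEC61A1, the channel subunit, was 1.65-fold higher (0.72 ± 0.14, SE, adjusted p = 0.00755) in all 20 alternative settings. TRAM1, its partner, was 1.71-fold higher (0.78 ± 0.18, SE, adjusted p = 0.0259), lost without DMD KO replicate 3 or WT replicate 2 or 3 at 3 months. For both genes the genotype difference changed between ages, by 1.09 (adjusted p = 0.00541) and 1.35 (adjusted p = 0.00825), in all 19 alternative settings. Of 11 measured genes of reticulum-associated degradation, which clears misfolded proteins, 3 were higher in DMD KO at 2 days (DERL1 at 0.74, VCP at 0.59 and SELENOS at 0.50) and 3 at 3 months (SEL1L at 1.02, EDEM2 at 0.97 and EDEM1 at 0.66). EDEM1 lay below the 25th percentile of the arrays in every group, so the size of its difference is uncertain. Differences of the degradation genes lay above 0 for 10 of the 11 at each age (medians 0.25 and 0.58). The medians over all probe sets were -0.02 and -0.05. Leaving out 1 array at a time gave counts from 0 to 3 at 2 days and from 0 to 4 at 3 months, with 0 at 3 months without DMD KO replicate 3, WT replicate 2 or WT replicate 3 there. At 2 days the count was 0 without any 1 of DMD KO replicates 2, 3 and 4 or WT replicates 2 and 3 at that age, DMD KO replicates 1 and 2 at 3 months or WT replicate 2 at 3 months. It was 1 without replicate 1 of either genotype at 2 days. The adjusted p of the 6 genes lay between 0.0212 and 0.0493, and apart from EDEM2, called in 15 of 20, each held in 5 to 10 of its alternative settings. The genotype difference changed between ages for 0 of the 11 by limma (1 had an unadjusted p under 0.05).

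The named genes whose levels were most like each of the 4 over all 13 arrays were picked by correlation. These are descriptions over 4 groups of animals, with the r of deviations from group means beside them. CALR was most like TCEAL8 (Pearson r = 0.97, deviations 0.84) and OSTC, a subunit of the oligosaccharyltransferase that glycosylates proteins in the reticulum (0.95, deviations 0.87). TSPAN6 (0.95, deviations 0.72), SH3BGRL (0.95, deviations 0.74) and GEM, a small GTPase (0.94, deviations 0.70), followed. HSPA5 was most like CALR itself (0.94, deviations 0.77), then GEM (0.92, deviations 0.80) and the cytoplasmic actin ACTB (0.92, deviations 0.69). OSTC (0.92, deviations 0.75) and TCEAL8 (0.91, deviations 0.69) came next. OSTC, GEM and TCEAL8 thus stood in both sets of 5. PSAT1 was most like RDH11, a retinol dehydrogenase (0.93, deviations 0.81), and KCNJ3, a potassium channel (0.92, deviations 0.71). DTL, a factor of DNA replication control (0.91, deviations 0.65), MSMO1, a sterol synthesis enzyme (0.90, deviations 0.59), and NLRX1 (0.89, deviations 0.75) followed. ATF4 was most like HIF1AN, the asparagine hydroxylase that inhibits HIF1 (0.95, deviations 0.35), and UBE2G1, a ubiquitin-conjugating enzyme (0.95, deviations 0.54). C13H21orf59 (0.94, deviations 0.27), AAMDC (0.94, deviations -0.18) and PTRH2 (0.93, deviations 0.48) followed. ATF4 had r of -0.22, -0.42 and -0.43 with PSAT1, HSPA5 and CALR over the 13 arrays, and of 0.09, 0.12 and 0.11 for deviations from group means.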

How the data were processed

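RNA of biceps femoris from 13 pigs was measured on whole-transcript arrays, 1 per animal. Per the submitters' processing notes, the authors made the deposited log2 values in Affymetrix Power Tools. Its version and the methods of summary and normalization are not stated in the labels, and the log2 base is inferred from the range. No column was left out and no filter applied. Probe sets were named from the platform annotation (11028 with 1 symbol, 418 with several, 10447 with none; 5 symbols updated by gene number); genes with several probe sets took the one with the highest mean.

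Groups came from the titles. limma 3.58.1 in R 4.3.3 (lmFit, eBayes) was fitted over 4 groups with 9 residual degrees of freedom, and tested on simulated data. SE and 95% intervals are limma's and SD is within groups. The labels call the animals biological replicates. No fold is given where the lower mean is within or below the arrays' 25th percentiles (6.53 to 6.61).

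The members, gene lists and markers were chosen with earlier results of these data known. Of each list the named genes are up to 5 called rises and 5 falls per genotype comparison, up to 3 and 3 elsewhere, or 2 by size in lists with no call, and the text names some of them; PDIA3, PDIA4, PDIA6, CANX, CHAC1 and SESN2 were named outside this rule, after their values were seen. Alternatives were the contrast's groups alone, trend and robust eBayes, quantile normalization, median centring, a filter at the 25th percentile of means, array weights, a replicate block and leaving out each array.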

Additional observations from a re-analysis of the deposited data

Results flagged for a closer look

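The change of the genotype difference between the ages (3 months minus 2 days) passed limma's test, adjusted over all probe sets, in 12 of the 54 genes given by the naming rule. That rule itself named genes for being called, and 5.05% of all probe sets passed. PDIA3 and PDIA6, named in the text outside that rule, passed too (0.91 and 0.81). It was -1.60 for ATF4, 2.07 for PSAT1, 1.65 for HSPA5 and 1.38 for CALR. Among amino acid and one-carbon genes it was 1.60 for ALDH1L2, 1.53 for ASNS, 0.91 for ALDH18A1 and -1.82 for CTH. Among genes of the reticulum it was 1.46 for PPIB, 1.35 for TRAM1, 1.09 for SEC61A1 and 0.99 for XBP1. ATF4 and CTH were the ones with a negative change, and CTH was dim in 3 of the 4 groups. The calls of ASNS and XBP1 held in 5 and 7 of 19 alternative settings.

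HSPD1, the mitochondrial Hsp60, had 1 value far from the others in DMD KO at 2 days. Its levels were 11.40, 11.42, 11.44 and 10.76 in replicates 1 to 4, a gap of 0.944 of the range. The gap passed Dixon's critical value for 4 samples, which chance alone passes in about 1 of 20 groups, and 1 of the 54 genes passed it.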

How the results depend on the processing

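Of 396 values of ATF4, PSAT1, HSPA5 and CALR under the alternatives, 356 kept direction and side of the threshold, 27 lost a call, 11 gained one and 2 turned sign. Of 1916 values of the other named genes 1641 kept both, 217 lost and 55 gained a call and 3 turned. The cause was not tested. With only the groups of a contrast, ATF4 at 2 days (0.59, adjusted p = 0.0654) and HSPA5 at 3 months (0.94, adjusted p = 0.0698) lost their calls. Probe sets called were then 1275 at 2 days and 40 for age in WT, and chaperones called 2 at 2 days and 3 at 3 months. Quantile normalization gave HSPA5 a call at 2 days (-0.94) and, for age in WT, HSPA5 (-0.82) and CALR (-0.67). It also moved the 2-day differences of ATF4 to 0.42 (from 0.59) and of CALR to -0.83 (from -0.58), and both stayed called. Dropping probe sets under the 25th percentile of means gave HSPA5 a call at 2 days (-0.71). With array weights, whose estimation did not fully converge, HSPA5 was called at 2 days (-0.66), HSPA5 (-0.82) and CALR (-0.55) for age in WT, and probe sets called were 5438 at 2 days (58.2% higher, against 71.4%), 3412 at 3 months, 2562 for age in WT (39.0% higher, against 59.2%), 3743 for age in DMD KO and 2760 for the change of the genotype difference. Chaperones called were 7, 14 and 13 at 2 days, at 3 months and for that change, and SLC38A2 turned sign in the change (0.15).

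Same-numbered animals share a number only (18 pairs, r of deviations from -0.50 to 0.33), and a replicate block lowered the counts of calls. Under the block, probe sets called were 735 at 2 days, 829 at 3 months, 325 and 1087 for age in WT and DMD KO, and 580 for the change, and 2 chaperones were called at 2 days, 2 at 3 months and 2 for the change. With the replicate block, ATF4 (0.48) and CALR (-0.54) at 2 days, HSPA5 at 3 months (0.94), HSPA5 (0.91) and PSAT1 (1.13) for age in DMD KO and HSPA5 for the change (1.63) were not called.

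Leaving out 1 array at a time, the difference at 2 days ran from 0.48 to 0.68 for ATF4, from -0.65 to -0.43 for CALR and from -0.83 to -0.55 for HSPA5. At 3 months it ran from 0.80 to 1.17 for HSPA5 and from -0.37 to 0.32 for PSAT1, whose sign turned without DMD KO replicate 2 (0.03) or WT replicate 3 (0.32). With age in DMD KO it ran from 0.98 to 1.18 for PSAT1 and from 0.80 to 1.16 for HSPA5. With age in WT it ran from -0.67 to -0.43 for CALR and from -1.40 to -0.70 for PSAT1. For age in WT, YME1L1 ran from -0.0046 (without WT replicate 3 at 2 days) to 0.61, and SLC38A1 from -0.50 to 0.050 (without WT replicate 2 at 3 months), so both turned sign. Probe sets called ran from 1143 to 3210 at 2 days, from 702 to 2036 at 3 months and from 368 to 757 for age in WT; chaperones called ran from 2 to 5 at 2 days and from 1 to 13 at 3 months. Each of the 4 genes had 1 probe set, so no other probe set could be tried, and the change between ages needs all groups.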

Other observations

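Some reticulum genes outside the lists shared the course of CALR, and were picked here after their values were seen. Among the 68 named genes called lower in DMD KO at 2 days and higher at 3 months, KDELR3, a receptor that returns KDEL-tagged chaperones to the reticulum, differed by -1.08 and 0.68 at the 2 ages. RRBP1, a ribosome-binding protein of the rough reticulum, differed by -1.43 and 0.81, FKBP7, a prolyl isomerase of its lumen, by -1.02 and 0.96, and RCN1, a calcium-binding reticulocalbin, by -0.72 and 0.61. The same set held 5 of the 7 measured fibroblast markers, while 0.443% of all probe sets had this course. It also held matrix genes, likewise picked after their values were seen. They were POSTN, periostin (-2.27 and 2.52), VCAN, versican (-1.47 and 2.09), FN1, fibronectin (-0.83 and 1.96), and SPARC (-1.01 and 0.81). Among the 24 named genes with the course of ATF4 were AASS, which starts lysine breakdown (0.96 and -0.86), COQ8A, of coenzyme Q synthesis (0.64 and -0.40), and HIF1AN (0.48 and -0.53). Genes known from vessel endothelium were there too, also picked after their values were seen, namely ADGRF5, an adhesion receptor (1.29 and -1.03), MYCT1 (0.67 and -1.24) and FLT1, a receptor of VEGFA (0.44 and -0.57). Of the 4 measured markers on the endothelium list 0 were among these 24 genes. Only 0.169% of all probe sets had this course, so a count of 0 among 4 markers carries no information. The 4 had medians of 0.10 and -0.27, with 1 called higher in DMD KO at 2 days and 0 called at 3 months by limma (2 had an unadjusted p under 0.05). Over all probe sets 7.09% were called higher at 2 days and 5.98% were called at 3 months. At 2 days 2 of them lay above 0 and 2 below, and at 3 months 1 lay above and 3 below.

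Of 8 measured chaperones and proteases of mitochondria 0 were called between genotypes at either age by limma (1 and 0 had an unadjusted p under 0.05 at 2 days and 3 months). Over all probe sets 9.93% and 5.98% were called. HSPA9, the mitochondrial Hsp70, fell with age in DMD KO, averaging 10.40 ± 0.11 at 3 months (SD, n = 3) and 11.35 ± 0.09 at 2 days (SD, n = 4), a difference of -0.95 ± 0.18 (SE, adjusted p = 0.00506). Its difference in WT was -0.76, which did not pass (adjusted p = 0.0579).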
